A study of Mus musculus with 2 samples.

Results

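Gnas and Nespas are overlapping genes on opposite strands of one imprinted mouse locus. All transcript models assigned to either gene were taken, of every class, and grouped by their first exon and by their internal exons. They numbered 33 of 65191 models in replicate 2 and 57 of 125539 in replicate 1. Gnas (ENSMUSG00000027523.19) spans chromosome 2 from 174284320 to 174346744 on the plus strand of mm10, and 24 transcripts are annotated for it. Nespas (ENSMUSG00000086537.7) spans 174281237 to 174295436 on the minus strand, with 3 annotated transcripts. Of the 2 genes, Gnas had reads and Nespas had 0 in both libraries.

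The samples were adrenal glands of female B6CASTF1/J mice, an F1 cross of C57BL/6J and CAST/EiJ, aged 2 months. There were 2 libraries in 1 group, with no treatment or other condition in the labels. By its biosample label replicate 2 came from animal 4 and replicate 1 from animal 3, but the library labels give 3 for both and 1 donor identifier is shared. P-values therefore compare the libraries as such, and the spread between them may be technical. Replicate 2 is set against replicate 1 throughout, without either being a control.

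Gnas uses alternative promoters, each with its own first exon, that splice onto the shared exon 2. The first exon farthest downstream encodes the start of Gs-alpha, the subunit that links receptors to adenylyl cyclase, and ACTH acts through it in the adrenal cortex. Nesp, the most upstream first exon, encodes a chromogranin-like secretory protein of neuroendocrine cells, and its transcripts come from the maternal allele. XL encodes a large variant of Gs-alpha and is transcribed from the paternal allele, as are the 1A transcripts, which are held to be noncoding, and the antisense RNA Nespas. Gs-alpha comes from both alleles in most tissues and mainly from the maternal allele in a few.

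The first exons were told apart in the reads by their junction with exon 2, which starts at 174334212. The joined sequences show where the transcripts part, with the last 15 bases of each first exon, or for Nesp of the exon before exon 2, in capitals and the first 15 bases of exon 2 in lower case (GENCODE M21, plus strand).
Nesp: TTTTCATGGATAAAGgtgctggagagtctg
XL: GCCTGCTGCTTCTAGgtgctggagagtctg
1A: GCGTCTCACTCACATgtgctggagagtctg
Gs-alpha: GCCTGCTGCTGCTGGgtgctggagagtctg
The capitals end at 174285477 for Nesp, 174300217 for XL, 174327941 for 1A and 174330434 for Gs-alpha. Everything from exon 2 on can be the same in all 4 kinds of transcript, so a read that stops short of these junctions cannot be assigned.

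Exon 3 lies at 174336747 to 174336791 and its 45 bases are the alternative part of the shared exons. Exon 4 starts at 174341653, or 3 bases earlier at 174341650. In the first sequence exon 3 is in capitals between the ends of exons 2 and 4, and in the second the 3 added bases are in capitals. The third holds neither.
With exon 3: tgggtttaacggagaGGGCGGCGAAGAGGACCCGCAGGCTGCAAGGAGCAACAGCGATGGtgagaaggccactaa
Without exon 3, longer exon 4: tgggtttaacggagaTAGtgagaaggccac
Without exon 3, shorter exon 4: tgggtttaacggagatgagaaggccactaa
The lengths of 45 and 3 bases are multiples of 3, and exons 2 to 4 lie within the coding sequence of the annotated Gs-alpha transcript Gnas-208. In the annotated Nesp transcript Gnas-211 the coding sequence ends before exon 2, so there the same exons are untranslated.

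**Figure D1:**
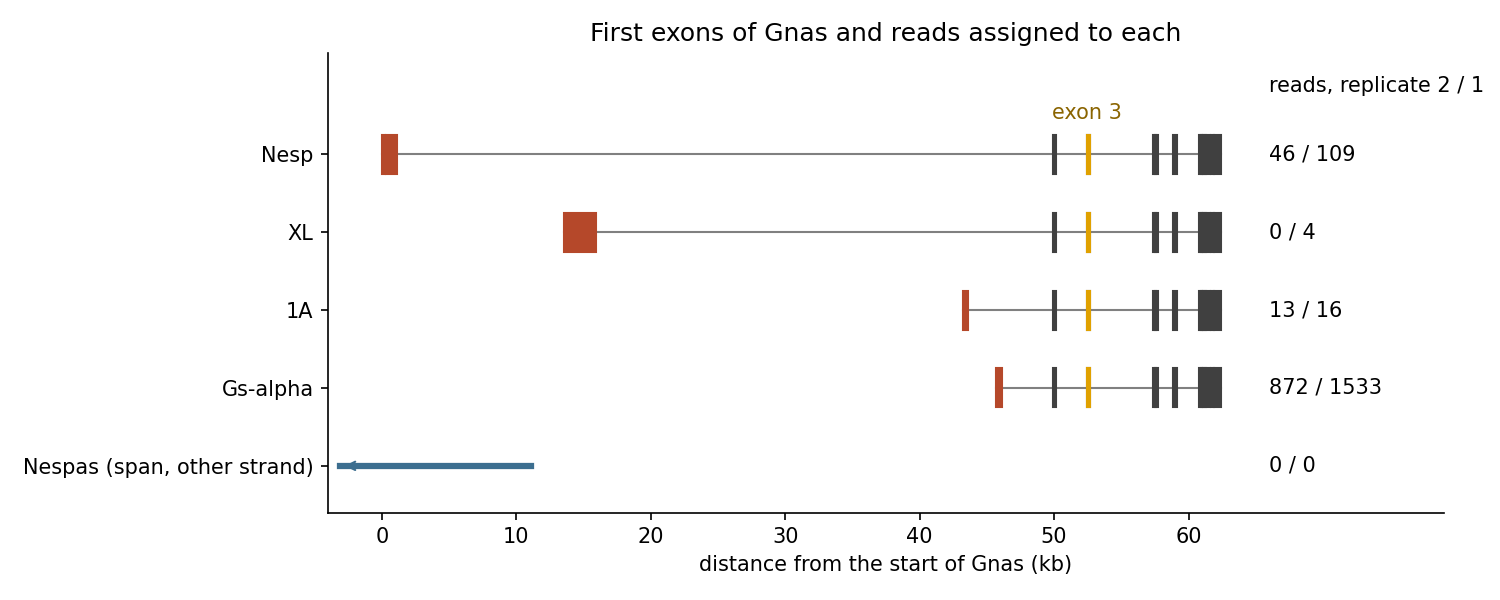
Map of the 4 first-exon groups of Gnas and of the span of Nespas, by distance in kb from the annotated start of Gnas, with the reads of replicate 2 and replicate 1 at the right. First exons are red, with the second Nesp exon also red, exon 3 is yellow and the other shared exons are dark. Exons under 250 bases are drawn 250 bases wide. Gs-alpha had 872 and 1533 reads, and Nespas had 0 in both libraries.

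RefSeq windows of 250 bases before the annotated start were at hand for Nesp, 1A and Gs-alpha (GRCm38.p6, 4 entries, of which 2 were for 1A), and they differ in base composition. Matches on either strand to TATAA or GGGCGG are in capitals, and no match of the one overlapped a match of the other. All of those marked read TTATA or CCGCCC as printed, so the motifs lie on the strand opposite to Gnas. Positions are those of the first printed base of a match.
Nesp, chr2:174284070-174284319: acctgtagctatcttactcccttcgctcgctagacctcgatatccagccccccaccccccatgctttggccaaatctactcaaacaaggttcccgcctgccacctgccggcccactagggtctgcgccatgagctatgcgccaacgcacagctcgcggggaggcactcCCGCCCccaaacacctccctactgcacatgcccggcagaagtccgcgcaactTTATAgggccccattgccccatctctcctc
1A, chr2:174327518-174327767: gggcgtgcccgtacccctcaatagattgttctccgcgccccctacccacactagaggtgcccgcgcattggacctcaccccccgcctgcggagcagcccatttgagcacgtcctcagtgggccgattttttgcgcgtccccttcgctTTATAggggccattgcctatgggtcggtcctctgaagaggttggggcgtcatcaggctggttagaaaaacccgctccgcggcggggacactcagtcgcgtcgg
Gs-alpha, chr2:174329756-174330005: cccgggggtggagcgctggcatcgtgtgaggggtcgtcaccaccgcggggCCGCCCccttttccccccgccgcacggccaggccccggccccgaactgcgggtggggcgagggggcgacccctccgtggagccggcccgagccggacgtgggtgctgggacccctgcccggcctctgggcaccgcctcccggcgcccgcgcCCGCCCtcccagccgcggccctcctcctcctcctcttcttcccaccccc
The Gs-alpha window was 80.0% G or C, that of 1A 63.2% and that of Nesp 61.6%, against a median of 52.4% over all 32851 mouse windows of this length. Nesp held 1 match to TATAA, starting 30 bases before the start site (position -30), and 1 match to GGGCGG. The 1A window held 1 match to TATAA and 0 to GGGCGG; the match lies at position -103 from the start used here and at -84 from the other 1A start. The Gs-alpha window held 2 matches to GGGCGG and 0 to TATAA. Of all windows, 22.8% held TATAA and 32.7% held GGGCGG, and a match describes letters only.

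Replicate 2 held 520388 reads and replicate 1 held 1277310, of which 502655 (96.6%) and 1209457 (94.7%) belonged to annotated nuclear genes. Levels are counts scaled to these totals (CPM), and as 1 long read stands for 1 molecule they are not divided by length. The floor of 3 reads, the most that a count of 0 leaves room for, was 5.97 CPM for replicate 2 and 2.48 CPM for replicate 1. The adrenal label was met by its markers: 6 of 6 cortex markers were detected in both libraries, summing to 82956 and 63522 CPM, and 7 of 7 medulla markers, summing to 6708 and 11620 CPM. The cortex marker Cyp21a1, at 28073 CPM in replicate 2 and 14022 CPM in replicate 1, was called higher in replicate 2, as were 5.96% of all tested genes. The other cortex markers were not called. The medulla markers Chgb and Pnmt were called lower in replicate 2, as were 3.59% of all tested genes. All 4 adipocyte markers were detected as well, at 3191 and 3445 CPM in sum. In such bulk tissue, fewer cells of a type and less RNA per cell cannot be told apart.

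Gnas was among the most abundant genes of the gland. It had 963 reads in replicate 2, or 1916 CPM (rank 37), and 1809 reads in replicate 1, or 1496 CPM (rank 57). The mean was 1706 ± 297 CPM (SD, n = 2). The level in replicate 2 was 1.28 times that in replicate 1 (log2 ratio 0.36, SE 0.058, adjusted p = 3.64e-08, Fisher's exact test), which is under the 2-fold needed for a call. Over the whole data 9.55% of 10170 tested genes were called. The genes nearest to Gnas in level, by Euclidean distance of log2(CPM + 1) over the 2 libraries, were Cd81 at 1842 and 1670 CPM, Mgst1 at 1785 and 1687 CPM and Thrsp at 2085 and 1712 CPM. With 2 libraries this measure finds genes of like abundance and little else.

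Most Gnas reads began with the Gs-alpha first exon. It had 872 of 963 reads in replicate 2 (90.6%, interval 88.5 to 92.3) and 1533 of 1809 in replicate 1 (84.7%, interval 83.0 to 86.4). In CPM this was 1735 and 1268, with a mean of 1501 ± 330 (SD, n = 2). Among reads with a donor site of 1 of the 4 named first exons, Gs-alpha held 93.7% in replicate 2 and 92.2% in replicate 1. The wider gap in the share of all Gnas reads stood beside more reads without a named donor site in replicate 1.

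Nesp was the second most used first exon. It had 46 reads in replicate 2 (4.78%, interval 3.52 to 6.32) and 109 in replicate 1 (6.03%, interval 4.97 to 7.22). The mean share of 5.40% rests largely on incomplete splice matches: it was 1.98% without them and 1.71% with annotated models only. Its level was 91.5 CPM in replicate 2 and 90.1 CPM in replicate 1 (mean 90.8 ± 0.98, SD, n = 2), so the libraries lay closer together than for Gs-alpha. The 2 Nesp levels lay side by side while the summed medulla markers stood at 6708 and 11620 CPM; the part of the medulla in these values was not tested. There were 19.0 Gs-alpha reads per Nesp read in replicate 2 and 14.1 in replicate 1.

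Nesp reads left through 2 donor sites. The downstream site, at 174285477, was the first donor of 32 reads in replicate 2 and 76 in replicate 1. The upstream site, at 174284508, ends the 189-base first exon of Gnas-211 and was the first donor of 14 and 33 reads. The downstream site also ends the second exon of Gnas-211, at 174284604 to 174285477. Whether reads of the 2 sites come from the same transcripts was not tested. The most abundant Nesp model was an incomplete match of 12 exons with 31 reads in replicate 2 and 72 in replicate 1, which lacks the first intron of Gnas-211. It starts at 174284320 in replicate 2, as Gnas-211 does, and at 174284604 in replicate 1. Model starts are not those of single reads. Gnas-211 itself, with 13 exons, had 13 and 30 reads. A further Nesp model with an added internal exon at 174288491 to 174288586 had 1 read in replicate 2 and 2 in replicate 1.

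The 1A first exon was used at a lower level, with 13 reads in replicate 2 (1.35%, 25.9 CPM) and 16 in replicate 1 (0.884%, 13.2 CPM). Their intervals, 0.721 to 2.30% and 0.506 to 1.43%, overlap. All 1A reads left through the donor at 174327941, and 0 through the other annotated 1A donor at 174328131. No 1A read of either library matched an annotated transcript. Each ran on into the shared exons with a chain of introns that M21 does not hold. The most abundant 1A model had 12 exons including exon 3, with 5 reads in replicate 2 and 9 in replicate 1. The next had 11 exons without exon 3, with 4 and 3 reads.

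XL was close to the limit of detection. It had 0 reads in replicate 2, which allows a share of up to 0.312% of Gnas reads, and 4 reads in replicate 1 (0.221%, interval 0.0603 to 0.565). Of these 4, 2 matched the 12-exon transcript Gnas-209 and 2 matched Gnas-204, which has 2 exons and ends early. The annotated XL first exon is 2359 bases long, against 346 bases for that of Gnas-208. A read that breaks off in the shared exons shows no first exon, so the XL values hold for reads that reached it.

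Some reads left through none of the named donor sites, though a few of them overlapped a named first exon. In replicate 2, 23 reads began in a shared exon or downstream and 7 had a single exon, together 3.12% of Gnas reads. In replicate 1 these were 67 and 73 reads, together 7.74%. The intervals of these shares, 2.11 to 4.42% and 6.55 to 9.07%, do not overlap. Most single-exon reads lay within the last exon of Gnas, 6 in replicate 2 and 63 in replicate 1. A further 2 reads in replicate 2 and 7 in replicate 1 had other first exons. In replicate 1, 4 of these reads shared a first exon at 174300525 to 174300980, just beyond the XL exon, and all 4 held exons 2 and 3.

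**Figure D2:**
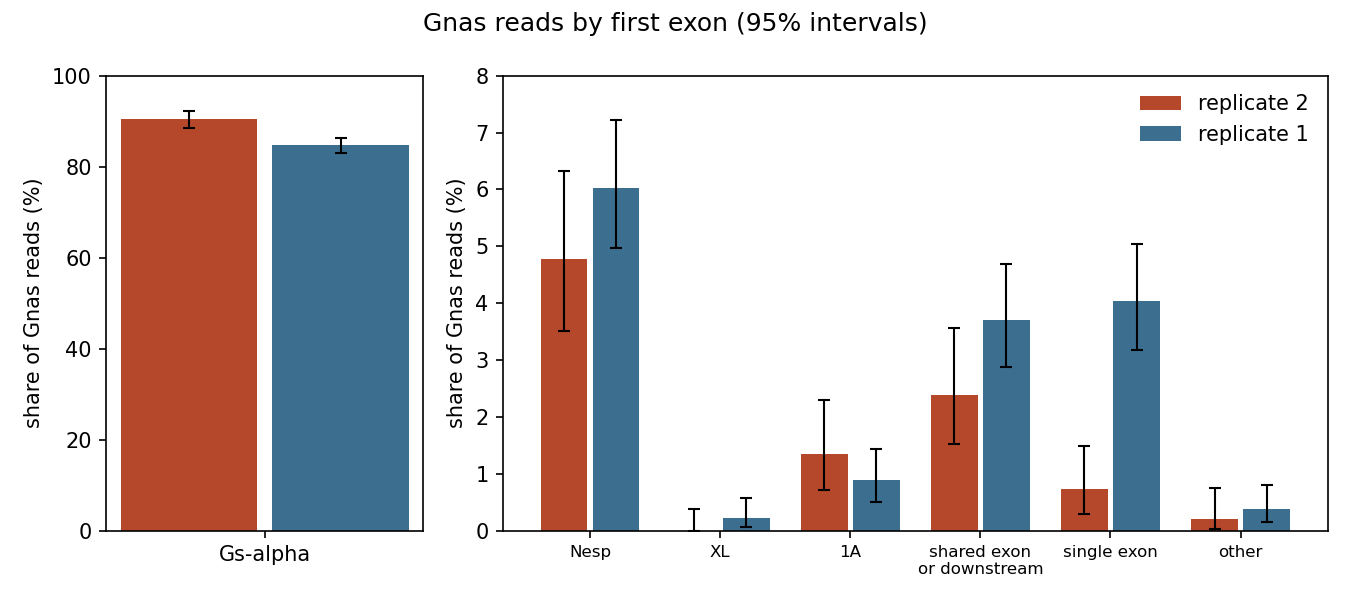
Share of Gnas reads (%) by first exon in replicate 2 (red) and replicate 1 (blue), with Gs-alpha on its own axis at left. Bars are shares of 963 and 1809 reads and lines are exact 95% intervals. Gs-alpha stood at 90.6% and 84.7%, Nesp at 4.78% and 6.03%, and single-exon reads at 0.727% and 4.04%.

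The shares were tested over spliced reads, 956 in replicate 2 and 1736 in replicate 1, by donor site of the first intron. Of 8 donor sites of Gnas tested, 4 end named first exons and 4 end shared exons in which reads began, and none was called between the libraries. Over all genes 7.81% of 3880 such sites were called, so 0 of 8 is no contrast with the background. The 303 calls behind that share numbered 12 with annotated models only and 18 without incomplete splice matches. Gs-alpha differed by 2.91 points, at 91.2% in replicate 2 and 88.3% in replicate 1 (adjusted p = 0.0990, Fisher's exact test). The upstream Nesp site differed by -0.44 points (adjusted p = 0.774), the downstream Nesp site by -1.03 points (adjusted p = 0.518) and 1A by 0.44 points (adjusted p = 0.662), all by Fisher's exact test. Reads whose first intron left exon 9, at 174345562, numbered 1 in replicate 2 and 16 in replicate 1 (a difference of -0.82 points, adjusted p = 0.0574, Fisher's exact test). A miss of the threshold does not show that the shares were alike.

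Exon 3 was included to a different degree in transcripts of different first exons. In Nesp reads it was nearly constant, in 45 of 46 reads in replicate 2 (97.8%, interval 88.5 to 99.9) and 106 of 109 in replicate 1 (97.2%, interval 92.2 to 99.4). In Gs-alpha reads it was present in 508 of 872 in replicate 2 (58.3%, interval 54.9 to 61.6) and 923 of 1533 in replicate 1 (60.2%, interval 57.7 to 62.7). The mean was 97.5 ± 0.41% for Nesp and 59.2 ± 1.38% for Gs-alpha (SD, n = 2 each), and the intervals of the pair do not overlap in either library. Without incomplete splice matches the means were 92.6% for Nesp and 59.2% for Gs-alpha. In 1A reads exon 3 was present in 5 of 13 in replicate 2 and 10 of 16 in replicate 1, with intervals wide enough to hold the Gs-alpha value. The 2 XL reads of replicate 1 that reached it both held it.

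Each first exon was tested against all other Gnas reads within each library, beside every other internal exon and first exon of the table, where 0.213% of 12219 pairs were called. For the downstream Nesp site, inclusion was higher by 38.1 points in replicate 2, at 31 of 32 reads against 58.7% in the rest (adjusted p = 0.00171, Fisher's exact test). In replicate 1 it was higher by 36.1 points, at 74 of 76 reads against 61.2% (adjusted p = 3.05e-10, Fisher's exact test), and the pair was called. The 12-exon incomplete match held 31 and 72 of the reads from this site, and without that class, or with annotated models only, the site had too few reads for a value. For the upstream Nesp site, 14 of 14 reads held exon 3 in replicate 2, a difference of 40.6 points (adjusted p = 0.386, Fisher's exact test), and 32 of 33 in replicate 1, a difference of 34.8 points (adjusted p = 0.00104, Fisher's exact test). It was not called, as replicate 2 missed the threshold with 14 reads.

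Gs-alpha inclusion was lower than in the rest, with a difference of -26.1 points in replicate 2 (adjusted p = 0.00838, Fisher's exact test) and -33.1 points in replicate 1 (adjusted p = 3.86e-14, Fisher's exact test), and it was called. The rest here is mostly Nesp reads, 64 and 135 reads in all, so the Gs-alpha and Nesp results are largely the same contrast seen from either side. Without incomplete splice matches, which removes the 12-exon Nesp model, the mean Gs-alpha difference over the libraries was -17.3 points, against -29.6 with all models, and was not called (larger adjusted p of the 2 libraries 1, Fisher's exact test). For 1A the differences were -21.9 points in replicate 2 and -0.39 in replicate 1 (adjusted p = 1 in both, Fisher's exact test). The other 44 Gnas pairs tested were not called. Of the 26 called pairs, 24 lay in 11 other genes, so a call of this kind was not particular to Gnas. Few calls do not show that such links are rare.

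**Figure D3:**
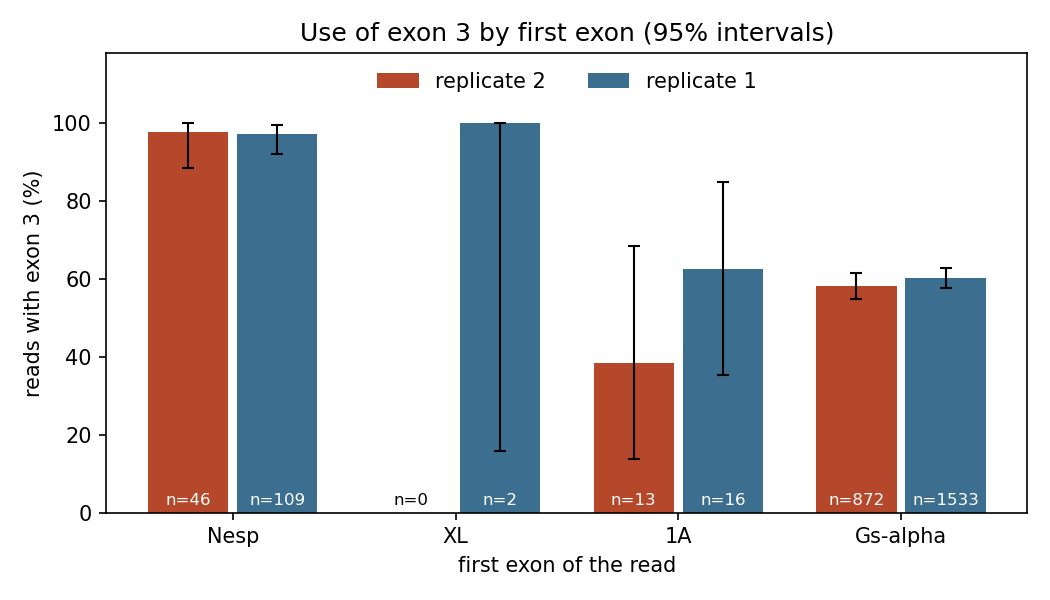
Share of reads with exon 3 (%) by first exon in replicate 2 (red) and replicate 1 (blue), with exact 95% intervals and the number of reads at the foot of each bar. Nesp stood at 97.8% and 97.2% and Gs-alpha at 58.3% and 60.2%, while 1A rests on 13 and 16 reads and XL on 0 and 2.

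**Figure D4:**
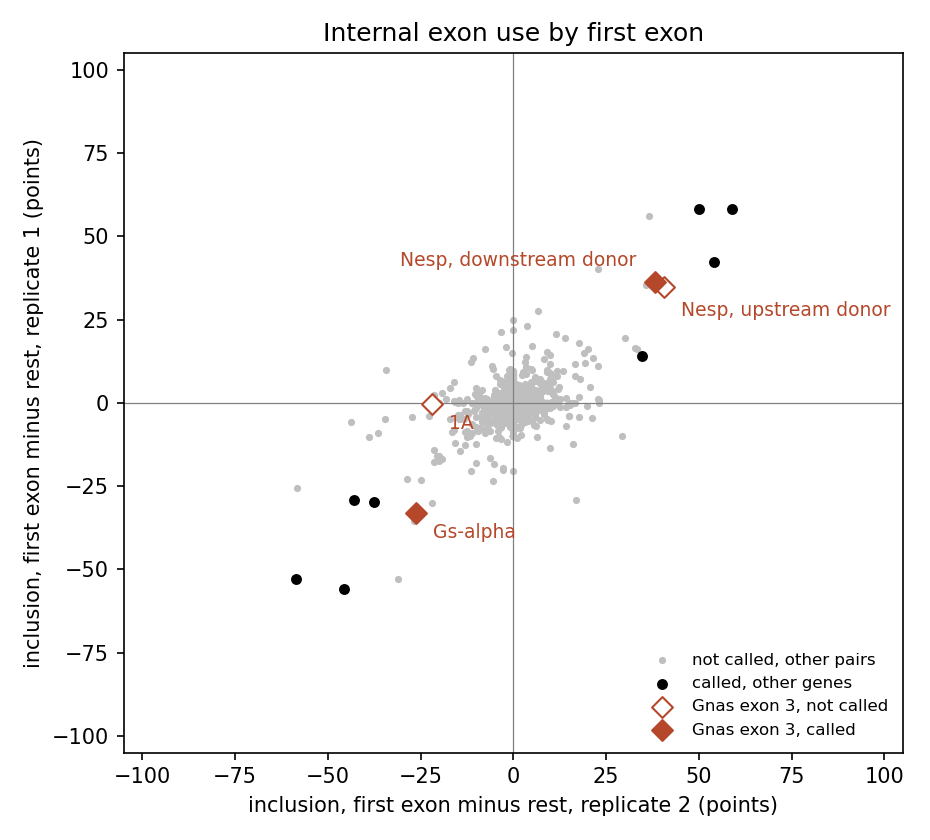
Difference in inclusion of an internal exon between reads of 1 first exon and the other reads of its gene, in percentage points, in replicate 2 (horizontal) and replicate 1 (vertical). Shown are the 3445 pairs with at least 10 reads on both sides in both libraries, 10 of them called (0.29%). Diamonds are Gnas exon 3, filled where called: Nesp lies at upper right and Gs-alpha at lower left, apart from the mass of pairs near 0.

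Over all Gnas reads, exon 3 inclusion was 562 of 936 in replicate 2 (60.0%) and 1049 of 1668 in replicate 1 (62.9%). The difference of -2.85 points was not called (adjusted p = 1, Fisher's exact test), in a table where 0.140% of 2138 internal exons were called. No other shared exon was alternative to a like degree. Exons 2 and 4 to 11 were skipped by 0 reads each in replicate 2 and by at most 3 reads each in replicate 1.

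The start of exon 4 differed with the use of exon 3. Among Gs-alpha reads without exon 3, the longer exon 4 was used by 240 of 363 in replicate 2 (66.1%, interval 61.0 to 71.0) and 396 of 607 in replicate 1 (65.2%, interval 61.3 to 69.0). Among Gs-alpha reads with exon 3 it was used by 0 of 508 in replicate 2, which allows up to 0.591%, and 0 of 923 in replicate 1, which allows up to 0.325%. These intervals are far apart in both libraries. The 1A reads without exon 3 used the longer form in 4 of 8 in replicate 2 and 2 of 6 in replicate 1, too few to place them against Gs-alpha.

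The Gs-alpha reads therefore held 3 main forms, and the order was the same in both libraries. The form with exon 3 and the shorter exon 4 made up 58.3% in replicate 2 and 60.3% in replicate 1 (1011 and 763 CPM). The form without exon 3 and with the longer exon 4 made up 27.6% and 25.9% (477 and 327 CPM). The form without exon 3 and with the shorter exon 4 made up 14.1% and 13.8% (245 and 174 CPM). The long and short forms of Gs-alpha, with and without exon 3, both couple receptors to adenylyl cyclase.

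**Figure D5:**
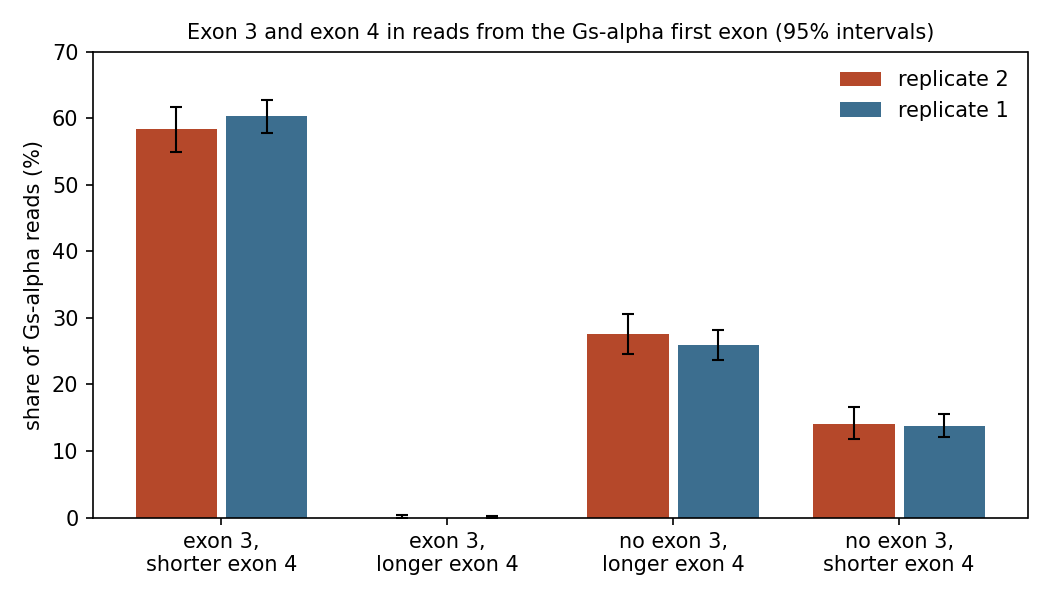
Share of Gs-alpha reads (%) by use of exon 3 and start of exon 4 in replicate 2 (red) and replicate 1 (blue), with exact 95% intervals, over 871 and 1530 reads that show both. The 3 forms found stood at 58.3% and 60.3%, 27.6% and 25.9%, and 14.1% and 13.8%, and exon 3 with the longer exon 4 had 0 reads.

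Nearly all Gs-alpha reads were in annotated models. Gnas-208, with exon 3, had 504 reads in replicate 2 and 916 in replicate 1. Gnas-207, without exon 3 and with the longer exon 4, had 240 and 395 reads, and Gnas-206, without exon 3 and with the shorter exon 4, had 120 and 206. These 3 models held 89.7% of Gnas reads in replicate 2 and 83.9% in replicate 1. Annotated models held 99.1% of Gs-alpha reads in replicate 2 and 99.0% in replicate 1, but 28.3% and 27.5% of Nesp reads. Incomplete splice matches held 67.4% and 66.1% of Nesp reads and 0 of the Gs-alpha reads. The grouping itself bears on this contrast, as a Gs-alpha read without its first exon leaves the Gs-alpha group. A Nesp read without the first intron of Gnas-211 stays in the Nesp group if it leaves through the downstream donor site. Over the gene, 91.1% and 85.7% of reads were in annotated models, against 81.8% and 76.5% over all annotated nuclear genes.

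The 68 distinct Gnas models over both libraries were mostly rare. In all 22 had reads in both libraries, 11 had at least 10 reads and 41 rested on 1 read. Of the 24 annotated transcripts, 6 had reads. An alternative last exon, N1 at 174337621 to 174338084, ends a short transcript that neural tissue makes after exon 3. In replicate 1, 1 read held this exon alone, against 0 in replicate 2. It followed exon 3 in 0 of 562 reads in replicate 2, which allows up to 0.534%, and in 0 of 1049 in replicate 1, which allows up to 0.286%. A retained intron of Gnas-208 was seen in 0 of 956 spliced reads in replicate 2 and 3 of 1736 in replicate 1.

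Nespas, the antisense RNA whose transcription crosses the Nesp promoter, had 0 reads in both libraries, under the floors of 5.97 and 2.48 CPM. Minus-strand reads within Gnas numbered 1 in replicate 2 and 6 in replicate 1, assigned to other genes. Low antisense levels were not detectable at this depth.

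The partners of Gs-alpha were read from lists of the pathway. Among 16 G alpha genes, which encode the subunits that select the effector, Gnas held 963 of 1489 reads in replicate 2 (64.7%) and 1809 of 2904 in replicate 1 (62.3%). Counting only reads from the Gs-alpha first exon, the shares were 58.6% and 52.8%. Gnai2 and Gnai3, which encode inhibitory subunits, stood at 223 and 191 CPM in replicate 2 and 193 and 279 CPM in replicate 1. Of 10 tested G alpha genes, 1 was called higher in replicate 2 and 1 lower, beside 5.96% and 3.59% of all genes. Gna12 was higher, at 269 CPM in replicate 2 and 103 CPM in replicate 1 (log2 ratio 1.39, adjusted p = 1.40e-12, Fisher's exact test). Gna13 was lower, at 19.9 CPM in replicate 2 and 59.5 CPM in replicate 1 (log2 ratio -1.52, adjusted p = 0.00373, Fisher's exact test). The median log2 ratio of the list was 0.28, against -0.06 over all tested genes. Gnal, the close relative of Gnas that serves smell, was at 0 reads in both libraries.

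Of 5 tested G beta genes none was called, and Gnb2 led with 354 CPM in replicate 2 and 282 CPM in replicate 1, before Gnb1 at 302 and 259 CPM, Gnb5 at 93.5 and 117 CPM and Gnb4 at 39.8 and 67.8 CPM. Among 7 tested G gamma genes, Gng5 led at 117 CPM in replicate 2 and 230 CPM in replicate 1. The 1 called gene of that list, Gng4, was higher in replicate 2 and rested on 8 reads there and 2 in replicate 1. Gng12 had 61.7 and 55.4 CPM, Gng10 31.8 and 41.3 CPM and Gng11 13.9 and 22.3 CPM. Of the adenylyl cyclases, which make cyclic AMP, Adcy3 had the most reads, at 47.7 CPM in replicate 2 and 39.7 CPM in replicate 1, and none of 4 tested was called. Adcy6 had 19.9 and 12.4 CPM, Adcy5 13.9 and 8.27 CPM and Adcy9 3.98 and 9.92 CPM, on 2 to 15 reads a library. Over all genes 9.55% were called and 5.96% were called higher, so the few calls in these short lists are no contrast with the background.

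Receptors that act through Gs-alpha were all far below it. Of 30 listed, 7 were detected with 3 or more reads in both libraries and 14 were at 0. None of 5 tested was called, beside 9.55% of all genes. Mc2r, the ACTH receptor of the cortex, stood at 83.6 CPM in replicate 2 and 81.9 CPM in replicate 1. Adrb3, a beta-adrenergic receptor of fat, had 93.5 and 48.0 CPM, beside the adipocyte markers given above, whose part in this value was not tested. Pth1r, the parathyroid hormone receptor, had 61.7 and 42.2 CPM. Of 3 other partners, Rgs2, which restrains G protein signalling, was called higher in replicate 2, beside 5.96% of all genes. Rgs2 stood at 77.6 CPM in replicate 2 and 24.8 CPM in replicate 1 (log2 ratio 1.64, adjusted p = 6.46e-05, Fisher's exact test). Ric8a and Ric8b, chaperones of G alpha subunits, had 65.7 and 27.9 CPM in replicate 2 and 111 and 18.2 CPM in replicate 1, and were not called.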

How the data were processed

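The authors deposited read counts per transcript model, as whole numbers without normalisation, with the matching models on mm10 and the GENCODE M21 annotation, per the file headers and the readme files. New models carry the source TALON, per the file headers. Aligner, platform and TALON version, not given in the sources used here, could change the counts of rare models.

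CPM was computed here over reads of annotated nuclear genes. A model's first exon was taken from the donor site of its first intron, since models merge reads with the same chain of introns and their starts are not those of single reads. Two-sided Fisher's exact tests were fitted on all genes or exons with Benjamini-Hochberg adjustment over all of them (SciPy 1.17.1). In simulated data with counting error only, 110 of 197 genes changed 3-fold were called. Of shifts by 25 points, 192 of 200 first exon shares, 97 of 200 internal exons and 24 of 200 pairs by first exon were called. Unchanged ones gave 0 calls. A result that was not called can therefore hide a change of this size. Gene tests needed 10 reads over both libraries. Tests of first exon shares needed 50 spliced reads of the gene in each library and 10 reads of the first exon over both. Tests of internal exons needed 10 reads in each library and 5 of each kind over both, and those by first exon needed 10 reads in the group and in the rest over both. For log2 ratios 0.5 reads were added, with a standard error (SE) from counting alone. Intervals are exact Clopper-Pearson 95% intervals and floors are 3 counts, and both cover counting error only.

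The members and lists were chosen with earlier results of these data known. Named genes were the 4 most abundant of each pathway list and the 3 genes nearest to Gnas in level, and called list members were named after seeing them. The level of 1 receptor gene is not reported here. Named models had at least 10 reads over both libraries or were among the 5 most abundant of their first exon. Alternatives covered scaling (edgeR 4.0.16, DESeq2 1.42.0), read minimums, model classes and leaving out a library. Parental alleles were not analysed here.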

Additional observations from a re-analysis of the deposited data

Results flagged for a closer look

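Replicate 1 held 6 reads assigned to the minus strand within the span of Gnas and replicate 2 held 1. These stood beside 1209457 and 502655 reads of annotated nuclear genes, and the difference was not tested. In replicate 1, 2 of these reads were assigned to Gm20721 and 4 to new genes, and 0 to Nespas. Each of these models rested on 1 read, and 1 of the 6 models in replicate 1 was spliced.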

How the results depend on the processing

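Of 91 alternative values, 0 reversed, 1 call was gained, 1 was lost and 13 shares or counts moved beyond the spread of the libraries or by over 1.5 times. The other 76 did not, which includes values that changed in size. The share of Gnas reads from Nesp averaged 5.40% with all model classes, 1.98% without incomplete splice matches and 1.71% with annotated models only. Under the same settings Gs-alpha averaged 87.6%, 95.9% and 98.2%. The 1A share was 0 with annotated models only. Leaving out each library in turn gave 4.78% to 6.03% for Nesp, 0 to 0.221% for XL, 0.884% to 1.35% for 1A and 84.7% to 90.6% for Gs-alpha. Genome-wide, the first exons called fell to 12 with annotated models only and to 18 without incomplete splice matches, against 303, and there were 602 with no minimum difference. Internal exons called numbered 5 without incomplete splice matches, against 3, and pairs called by first exon numbered 6 with annotated models only, against 26. With annotated models only, the upstream Nesp donor site passed the test of exon 3 use. The mean difference over the libraries was 40.6 points, against 37.7, with a larger adjusted p of 0.0478, against 0.386 (Fisher's exact test). That setting leaves this site only Gnas-211, which holds exon 3, so its inclusion was fixed at 100%. In replicate 2 this call rested on 13 reads, against 14 with all models, so it is not stronger evidence. Without incomplete splice matches, the mean Gs-alpha difference in exon 3 use was -17.3 points, against -29.6, and was not called (larger adjusted p of 1, Fisher's exact test), since that setting removes most Nesp reads from the reads compared with it. The downstream Nesp donor site had too few reads for a value in either of these settings. Without incomplete splice matches the upstream Nesp donor site was not called (larger adjusted p of 0.0796, Fisher's exact test). No first exon of Gnas was thus called for exon 3 use in that setting. No paired analysis was possible because there is 1 group. Depth limits XL and 1A, with at most 16 reads of either in a library, and Nespas, with 0.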
